A study of Mus musculus with 8 samples.

Results

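The 8 genes described here encode the exchangeable catalytic subunits of the proteasome and a regulator of peptide output. They are Psmb8, Psmb9 and Psmb10, the catalytic subunits of the immunoproteasome, their constitutive counterparts Psmb5, Psmb6 and Psmb7, and Psme1 and Psme2, the subunits of the PA28 activator. They were selected by gene symbol, and all 8 were found among the 55450 genes of the deposited table. Messenger RNA had been sequenced from 8 tumours grown in the flanks of C57BL/6 mice from MOC1 cells, a mouse squamous carcinoma line of the mouth. Every tumour had been exposed to anti-PD-1, an antibody against the T cell checkpoint receptor PD-1, and to an ASO, which is an antisense oligonucleotide made to pair with one transcript, over 32 days. The ASOs targeted Smyd3, a lysine methyltransferase, in 5 tumours and were control ASOs in 3. The labels call 2 of the 5 Smyd3 ASO tumours responders (1 and 3) and 2 non-responders (here 1 and 2, in listing order), and the remaining one, number 2, carries no mark and is called unmarked below. Response is an outcome and not a treatment that was assigned. A single tumour line was used, the age of the mice is not given in the sources used here, and bulk tumour RNA includes that of host cells. The labels do not say that each tumour came from a separate animal, so p-values measure the spread between these 8 samples.

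The proteasome is a barrel of stacked rings that cuts proteins into peptides, and the beta ring carries its 3 active sites. Under interferon gamma, and constitutively in many haematopoietic cells, newly assembled particles take up Psmb8 (β5i) in place of Psmb5 (β5), Psmb9 (β1i) in place of Psmb6 (β1) and Psmb10 (β2i) in place of Psmb7 (β2). The exchange changes which peptides are made for presentation on MHC class I. PA28, a ring of Psme1 and Psme2, caps the barrel, opens its gate and is also inducible by interferon gamma.

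Psmb8 and Psmb9 lie in the MHC region of mm10 chromosome 17. Psmb8 (ENSMUSG00000024338.15) spans 34197721 to 34201454 on the plus strand, and Psmb9 (ENSMUSG00000096727.3) spans 34181987 to 34187764 on the minus strand. The annotated start of Psmb9 is 211 bp from that of Tap1, which encodes a subunit of the peptide transporter and is read in the opposite direction. Psmb10 (ENSMUSG00000031897.9) lies on chromosome 8 at 105935735 to 105938444. Psme1 (ENSMUSG00000022216.17) and Psme2 (ENSMUSG00000079197.10) start 13 kb apart on chromosome 14, at 55578123 and 55591113. Of the constitutive genes, Psmb5 (ENSMUSG00000022193.7) is also on chromosome 14, Psmb6 (ENSMUSG00000018286.6) on chromosome 11 and Psmb7 (ENSMUSG00000026750.6) on chromosome 2. All 8 are protein-coding genes in GENCODE M21.

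Promoter windows of 250 bases before to 50 bases after the transcription start were taken from RefSeq on GRCm38.p6, where 7 of the 8 members had an entry, all but Psmb7. They were searched on both strands for the interferon-stimulated response element, taken as GAAA and GAAA separated by any 2 bases, and for the gamma-activated site as TTCNNNGAA. Factors of the interferon response bind such motifs. The windows of Psmb8, Psme1 and Psmb9 are printed because the first 2 held a match, in capitals, and the window of Psmb9 shares 275 of its 300 bases with that of Tap1.
Psmb8 (GRCm38.p6 chr17:34197945-34198244, plus strand): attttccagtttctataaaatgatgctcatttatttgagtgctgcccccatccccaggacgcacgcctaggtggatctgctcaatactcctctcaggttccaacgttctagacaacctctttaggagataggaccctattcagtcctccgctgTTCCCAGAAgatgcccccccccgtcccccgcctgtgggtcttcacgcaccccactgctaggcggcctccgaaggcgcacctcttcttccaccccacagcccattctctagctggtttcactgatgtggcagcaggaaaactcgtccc
Psme1 (GRCm38.p6 chr14:55578244-55578543, plus strand): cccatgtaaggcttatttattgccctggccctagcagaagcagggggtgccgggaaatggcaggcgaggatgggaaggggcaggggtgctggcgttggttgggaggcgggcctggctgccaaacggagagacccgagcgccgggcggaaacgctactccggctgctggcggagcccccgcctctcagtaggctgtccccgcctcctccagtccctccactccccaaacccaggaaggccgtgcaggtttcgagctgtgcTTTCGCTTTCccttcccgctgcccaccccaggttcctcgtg
Psmb9 (GRCm38.p6 chr17:34187281-34187580, minus strand): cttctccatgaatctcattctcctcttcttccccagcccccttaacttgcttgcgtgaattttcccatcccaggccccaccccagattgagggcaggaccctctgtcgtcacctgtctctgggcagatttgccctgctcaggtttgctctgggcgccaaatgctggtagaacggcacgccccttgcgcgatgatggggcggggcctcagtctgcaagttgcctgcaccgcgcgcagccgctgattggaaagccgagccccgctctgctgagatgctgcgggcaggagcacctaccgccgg

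The match in Psmb8 was a gamma-activated site, TTCCCAGAA, whose first base lay 97 bases before the start. The match in Psme1 was an interferon-stimulated response element on the reverse strand, TTTCGCTTTC, whose first base was base 10 of the transcript. Of all 32851 RefSeq promoter windows of this length, 8.3% held the gamma-activated site motif and 3.44% the interferon-stimulated response element motif. The windows of Psmb9, Psmb10, Psme2, Psmb5 and Psmb6 held neither run of letters, which says nothing of the factors that bind there. The RefSeq starts of Psmb8, Psme1 and Psmb9 lie within the gene bodies of the GENCODE annotation, so the printed windows are not centred on the starts given above.

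The libraries held 22103853 to 27258700 expected counts, the read numbers per gene that the program RSEM estimates. Mitochondrial transcripts took 1.94% to 2.58%. Levels are given below as counts per 1000000 reads (CPM) after TMM scaling between libraries. The ASO target Smyd3 stood at 8.68 and 4.38 CPM in the responders, 4.58 in the unmarked tumour, and 9.26 and 4.88 in the non-responders, against 10.7, 11.9 and 10.6 CPM in the controls. Keratinocyte markers fitting the line were present in every library, with Krt5 at 6771 to 13925 CPM in Smyd3 ASO tumours and 9644 to 14496 CPM in control tumours. Skeletal muscle markers were apart between the arms. The summed level of 13 of them was 722 to 12400 CPM in Smyd3 ASO tumours and 45.8 to 112 CPM in control tumours, with Pvalb at 0 in control 2. All 13 were higher in Smyd3 ASO tumours without overlap between the arms, as were 5.45% of all genes tested. The summed level of 13 leukocyte markers did overlap, at 396 to 802 CPM in Smyd3 ASO tumours and 384 to 552 CPM in control tumours, with Ncr1 and Ms4a1 at 0 in control 1. Within that list the T cell gene Cd8a was at 7.74 to 39.5 CPM in Smyd3 ASO tumours and 3.99 to 6.69 CPM in control tumours (log2 fold change 1.92, SE 0.48, edgeR FDR 0.13). Flt3, a receptor of dendritic cells and their precursors, also had no overlap between the arms (1.66, edgeR FDR 0.196), and Cd3e of T cells overlapped (1.35, edgeR FDR 0.299). The other 10 leukocyte markers had an unadjusted p of 0.05 or more. The 7 adipocyte markers summed to 30.5 to 278 CPM in Smyd3 ASO tumours and 17 to 42.6 CPM in control tumours. Lep was at 0 in all 3 controls and in the unmarked tumour. Plin1 was at 0 in controls 2 and 3 and in the unmarked tumour, and Adipoq in controls 2 and 3 and in non-responder 1. Fabp4 alone was at 19.9 to 97.6 CPM in Smyd3 ASO tumours and 16.5 to 42.2 CPM in control tumours. Fibroblast markers, 7 in number, summed to 4231 to 5751 CPM in Smyd3 ASO tumours and 6529 to 11652 CPM in control tumours. The sum was mostly the collagen genes Col1a1, Col1a2 and Col3a1 (log2 fold changes −1, −0.878 and −0.725), and Pdgfrb was also lower (−1). The list was split, since Pdgfra, Dcn and Fap stood at 0.425, 0.26 and 0.169. In bulk tissue, fewer cells of a type and less RNA per cell cannot be told apart.

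Smyd3 ASO tumours were compared with control ASO tumours to ask whether the immunoproteasome genes differ between the arms, and whether their constitutive partners do so as well. The 3 immunoproteasome transcripts averaged 1.8 to 2.34 times the control level in the Smyd3 ASO arm and both PA28 transcripts 1.66 to 1.72 times, while the 3 constitutive transcripts averaged 1.17 to 1.23 times. The values were uneven within the Smyd3 ASO arm, where non-responder 1 was close to the controls in all 5 inducible genes. No gene passed a false discovery rate (FDR) of 0.05 over all 16911 genes tested with edgeR's quasi-likelihood test, the members included, so none of these differences is a call. At an unadjusted p below 0.05 edgeR held 2630 genes, while at the FDR threshold DESeq2 called 1053 and limma voom 0.

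Psmb8, the chymotrypsin-like immunosubunit, was at 411 and 384 CPM in the responders, 350 in the unmarked tumour, 206 and 311 in the non-responders, and 174, 173 and 207 in the controls. Non-responder 1 was just below control 3, so the arms overlapped. The log2 fold change was 0.85 (SE 0.21, edgeR FDR 0.13). Psmb9 was at 213 and 241 CPM in the responders, 213 in the unmarked tumour, 112 and 180 in the non-responders, and 84.6, 77.4 and 96.6 in the controls. Every Smyd3 ASO tumour exceeded every control, with the smallest gap at non-responder 1. Its log2 fold change was 1.15 (SE 0.23, edgeR FDR 0.0939). Psmb10, the immunosubunit of the trypsin-like site, showed the largest difference of the 8. It was at 105 and 144 CPM in the responders, 113 in the unmarked tumour, 60.2 and 95.7 in the non-responders, and 44.2, 47.2 and 41.7 in the controls. The arms did not overlap, and the log2 fold change was 1.22 (SE 0.24, edgeR FDR 0.0939).

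**Figure D1:**
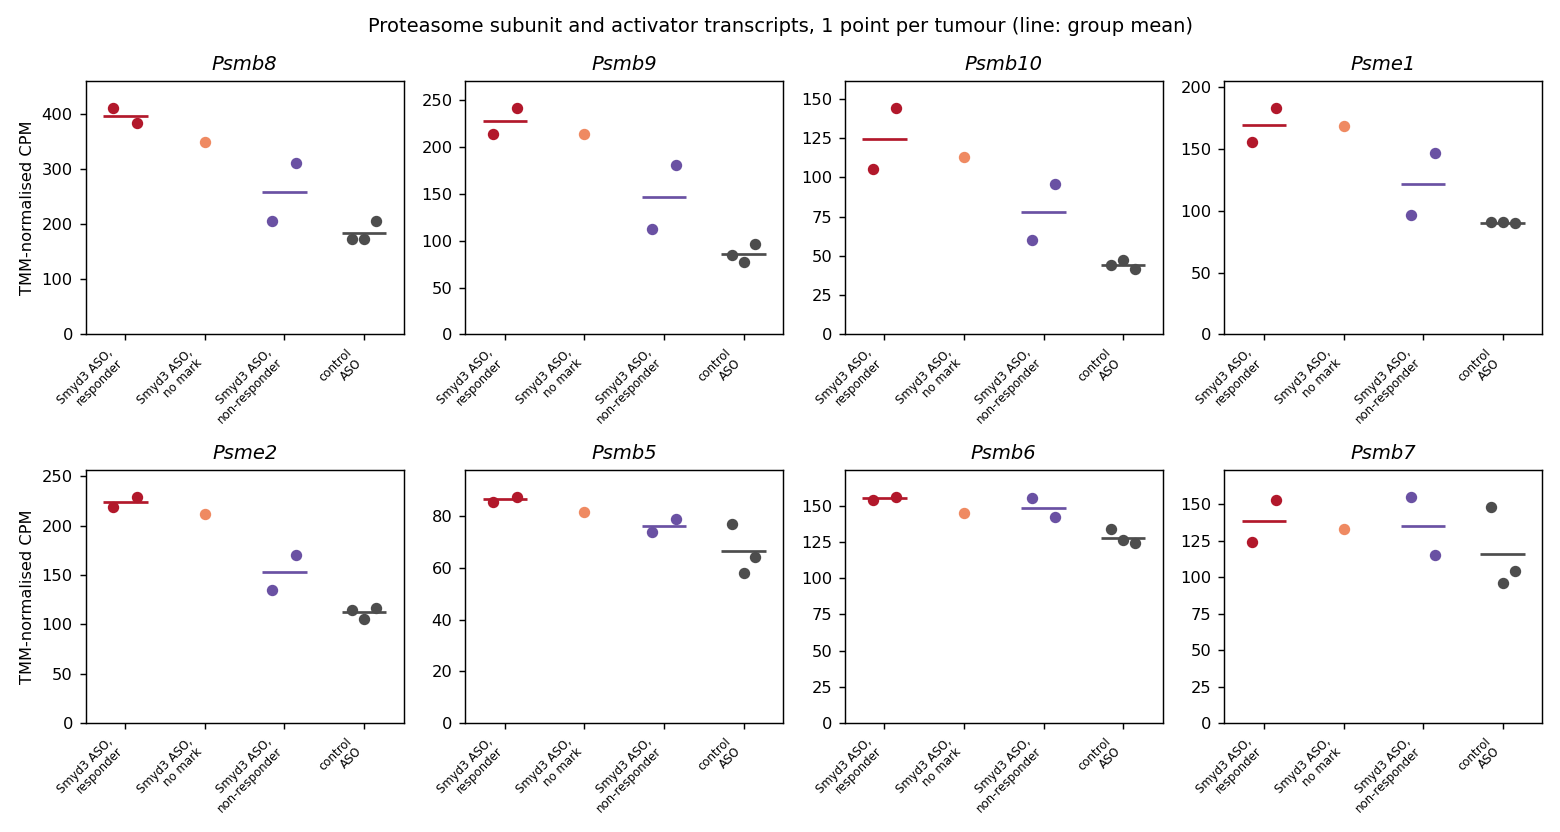
TMM-normalised CPM (vertical axis, from 0) of the 8 genes, 1 point per tumour, with groups along the horizontal axis and a line at the mean of groups of 2 or more. The 3 immunoproteasome genes and both PA28 genes are highest in the responders and the unmarked tumour, and non-responder 1, the lower point of its group in these 5 genes, is near the 3 controls; Psmb7 of the lower row has groups that overlap throughout.

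The activator genes also had their lowest Smyd3 ASO value in non-responder 1. Psme1 was at 156 and 183 CPM in the responders, 169 in the unmarked tumour, 96.9 and 147 in the non-responders, and 90.7, 91 and 89.9 in the controls. The controls were nearly equal, and all 5 Smyd3 ASO tumours were above them (log2 fold change 0.73, SE 0.19, edgeR FDR 0.132). Psme2 was at 219 and 229 CPM in the responders, 212 in the unmarked tumour, 135 and 170 in the non-responders, and 115, 105 and 117 in the controls. Here too the arms did not overlap (log2 fold change 0.78, SE 0.18, edgeR FDR 0.103). Psme2 has a close copy, Psme2b, whose expected counts were 2.88% to 4.18% of those of Psme2. Both had expected counts that were not whole numbers in all 8 libraries, as arises when RSEM divides reads between loci. The same held for Psmb5, the denominator of the first ratio below.

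The constitutive subunits differed less. Psmb5, the chymotrypsin-like subunit, was at 85.5 and 87.4 CPM in the responders, 81.7 in the unmarked tumour, 73.7 and 78.8 in the non-responders, and 76.9, 58.1 and 64.2 in the controls. Control 1 reached into the Smyd3 ASO range (log2 fold change 0.29, SE 0.11, edgeR FDR 0.264). Psmb6, the caspase-like subunit, was at 154 and 156 CPM in the responders, 145 in the unmarked tumour, 155 and 142 in the non-responders, and 134, 126 and 124 in the controls. Its arms did not overlap although the difference was small (log2 fold change 0.23, SE 0.08, edgeR FDR 0.227). Psmb7, the trypsin-like subunit, was at 124 and 153 CPM in the responders, 133 in the unmarked tumour, 155 and 115 in the non-responders, and 148, 95.9 and 104 in the controls. The arms overlapped (log2 fold change 0.23, SE 0.17, edgeR FDR 0.552).

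Of the 8 members, 0 passed the FDR threshold, as did 0% of all genes in the upward direction. At an unadjusted p below 0.05, 7 of the 8 were higher in Smyd3 ASO tumours, where 8.55% of all genes tested were. In 5 of the 8, Psmb9, Psmb10, Psme1, Psme2 and Psmb6, the lowest Smyd3 ASO tumour was above the highest control, as in 5.45% of all genes. The median log2 fold change was 0.76 over the 8 members and 0.01 over all genes tested. Without non-responder 1, 5 members passed (Psmb8, Psmb9, Psmb10, Psme1 and Psme2, edgeR FDR 0.0105 to 0.0243), where 1.11% of all genes were called higher, and DESeq2 called these 5 and Psmb6 in all 8 tumours, where it called 3.95% of all genes higher. With the leukocyte score as a covariate the 5 inducible genes had log2 fold changes of 0.51 to 0.90. With the muscle score, which does not overlap between the arms and so makes the fit an extrapolation, these were −0.13 to 0.11.

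Count ratios within a tumour compare each immunosubunit with its own partner, and library size cancels in them. The ratios of 4 of the 5 Smyd3 ASO tumours lay above all controls for each of the 3 pairs, and non-responder 1 lay within the control range each time. Psmb8 to Psmb5 was 4.8 and 4.39 in the responders, 4.28 in the unmarked tumour, 2.79 and 3.95 in the non-responders, and 2.26, 2.99 and 3.23 in the controls. Its mean log2 ratio was 1.99 ± 0.30 (SD, n = 5) in Smyd3 ASO tumours and 1.48 ± 0.27 (SD, n = 3) in controls, a difference of 0.51 (exact permutation test, two-sided p = 0.0893).

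Psmb9 to Psmb6 was 1.38 and 1.54 in the responders, 1.47 in the unmarked tumour, 0.723 and 1.27 in the non-responders, and 0.632, 0.616 and 0.777 in the controls. The mean log2 ratio was 0.31 ± 0.45 (SD, n = 5) in Smyd3 ASO tumours and −0.58 ± 0.18 (SD, n = 3) in controls, a difference of 0.88 (exact permutation test, two-sided p = 0.0536). More counts of Psmb9 than of Psmb6 were present in 4 Smyd3 ASO tumours, and fewer in non-responder 1 and in all 3 controls. Psmb10 to Psmb7 was 0.843 and 0.939 in the responders, 0.854 in the unmarked tumour, 0.389 and 0.832 in the non-responders, and 0.299, 0.492 and 0.4 in the controls. The mean log2 ratio was −0.44 ± 0.52 (SD, n = 5) in Smyd3 ASO tumours and −1.36 ± 0.36 (SD, n = 3) in controls, a difference of 0.92 (exact permutation test, two-sided p = 0.107). None of the 3 ratios passed 0.05, with p-values not adjusted for the 3 tests and a smallest possible p of 0.0179 over the 56 splits. Without non-responder 1, the only Smyd3 ASO tumour within the control range, the differences were 0.64, 1.07 and 1.16. Each exact permutation p was then 0.0286, the smallest possible with that tumour left out. Without control 3, the highest control, the difference of Psmb9 to Psmb6 was 0.99 (exact permutation p = 0.0476, again the smallest possible). Leaving out these tumours itself separates the arms, so these p-values are no separate support.

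**Figure D2:**
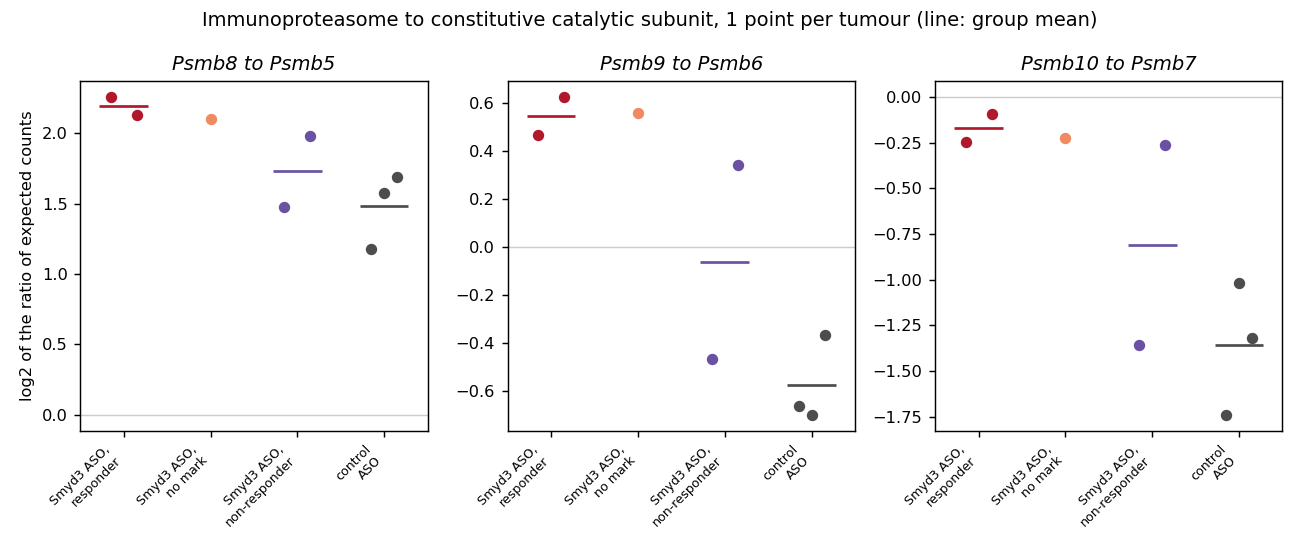
Log2 ratio of expected counts of each immunoproteasome subunit to its constitutive partner (vertical axis, a scale of its own per panel), 1 point per tumour, with a line at the mean of groups of 2 or more. In each panel the responders, the unmarked tumour and 1 non-responder lie above all 3 controls, and the other non-responder lies within the control range.

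Levels of different genes were compared per length, as CPM per kb of exons. With the union of annotated exons as length, Psmb8 stood at 98.3 ± 23.7 CPM per kb in Smyd3 ASO tumours (SD, n = 5) and 54.7 ± 5.75 in controls (SD, n = 3). Psmb5 stood at 90.6 ± 6.06 CPM per kb in Smyd3 ASO tumours and 73.9 ± 10.7 in controls. The order in Smyd3 ASO tumours was Psme2, Psmb8, Psmb5, Psmb6, Psme1, Psmb10, Psmb9, Psmb7, and each neighbour in it overlapped with the next. In controls the order was Psmb5, Psmb6, Psme2, Psmb8, Psme1, Psmb7, Psmb10, Psmb9. There Psmb6 and Psme2, Psmb8 and Psme1, and Psmb7 and Psmb10 were apart, and the other neighbours overlapped. The order depends on the length used, since annotated isoforms lengthen the union of some genes more than of others. Per kb of the longest protein-coding transcript, Psmb8 was at 204 ± 49.2 in Smyd3 ASO tumours and 114 ± 11.9 in controls, while the values of Psmb5 stayed as above. The ratio of Psmb8 to Psmb5 in single tumours was then 1.54 to 2.65 in Smyd3 ASO tumours and 1.25 to 1.78 in controls, whereas with the union it was 0.741 to 1.28 in Smyd3 ASO tumours and 0.6 to 0.858 in controls. Which of the 2 genes is more abundant can therefore not be told from these data. The comparison of a ratio between tumours does not depend on which of these lengths is chosen. Whether isoform use differed between tumours was not examined.

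The rest of the proteasome was measured beside the members. The 32 tested genes of the 20S alpha ring, the non-catalytic beta subunits and the 19S regulatory cap had a median log2 fold change of 0.20 in Smyd3 ASO against control ASO tumours, and ranged from −0.13 (Psmd8) to 0.45 (Psmc5), all below the smallest value among the immunoproteasome and PA28 genes. None passed the FDR threshold in edgeR. At an unadjusted p below 0.05, 12 of the 32 were higher and 0 lower, where 8.55% of all genes were higher. Psmc5, an ATPase of the cap, was at 158 and 160 CPM in the responders, 138 in the unmarked tumour, 162 and 137 in the non-responders, and 126, 95.3 and 110 in the controls. In contrast to the inducible genes, non-responder 1 was among the highest here.

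By part, the median was 0.27 over the 7 alpha subunits, 0.26 over the 4 non-catalytic beta subunits, 0.18 over the 6 ATPases and 0.13 over 15 other cap genes. The constitutive catalytic subunits, with a median of 0.23, lay within these. Psma5, Psma2 and Psma4 of the alpha ring stood at 0.40, 0.38 and 0.38, and Psmb3, Psmb4 and Psmb1 at 0.31, 0.29 and 0.23 (edgeR FDR 0.105 to 0.285 for the 6). In the cap, Psmc2 and Psmc1 stood at 0.28 and 0.23, and Psmd6, Psmd12 and Psmd7 at 0.28, 0.24 and 0.22. Psme3, the PA28 subunit of nuclear proteasomes, was at 137 and 142 CPM in the responders, 138 in the unmarked tumour, 170 and 143 in the non-responders, and 135, 130 and 135 in the controls (log2 fold change 0.13, SE 0.10, edgeR FDR 0.562). Non-responder 1, near the controls in Psme1 and Psme2, was the highest tumour for Psme3. Among 5 assembly chaperones the median was 0.36, with Pomp, the maturation factor of the beta ring, at 0.45 (SE 0.13, edgeR FDR 0.166), Psmg3 at 0.37 and Psmg4 at 0.36. The regulators of constitutive proteasome genes Nfe2l1, Nfe2l2, Ddi2 and Ngly1 had a median of −0.05, and 0 of them had an unadjusted p below 0.05. Psmb11, the catalytic subunit of the thymus, and Psma8, a testis form of an alpha subunit, were below the filter on low counts and were not tested, with Psmb11 at 0 in 7 of the 8 libraries.

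**Figure D3:**
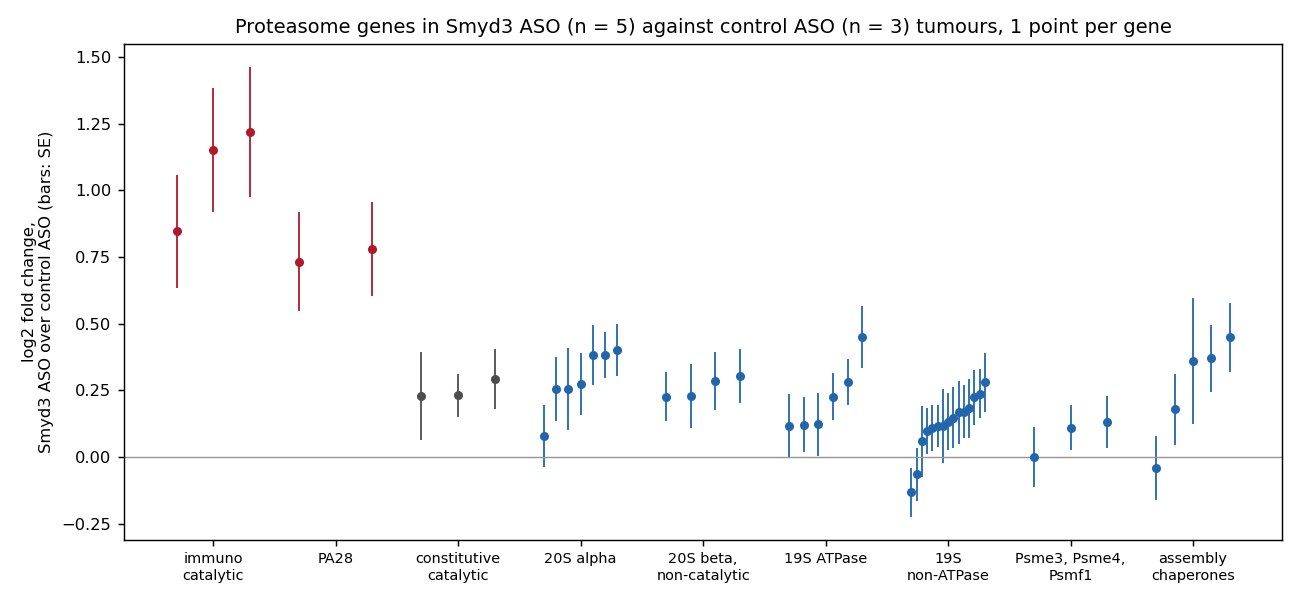
Log2 fold change of Smyd3 ASO over control ASO tumours with its standard error (vertical axis), 1 point per gene, by part of the proteasome (horizontal axis). The immunoproteasome and PA28 genes lie between 0.73 and 1.22, and the 20S and 19S genes between −0.13 and 0.45 with the constitutive catalytic subunits among them.

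Genes known to act upstream of the inducible subunits, or beside them in antigen presentation, were also measured. Of 14 interferon regulators, 7 were higher at an unadjusted p below 0.05, where 8.55% of all genes were, and 0 lower, and 0 passed the FDR threshold in edgeR. Irf1, a factor induced by interferon gamma, was at 365 and 426 CPM in the responders, 371 in the unmarked tumour, 231 and 323 in the non-responders, and 168, 197 and 178 in the controls. Non-responder 1 was the lowest Smyd3 ASO tumour, above all controls (log2 fold change 0.93, SE 0.19, edgeR FDR 0.0939). Nlrc5, the transactivator of MHC class I genes, was at 199 to 292 CPM in Smyd3 ASO tumours and 98.4 to 170 CPM in controls. Ifng itself was scarce, at 2.19 and 3.55 CPM in the responders, 2.1 in the unmarked tumour, 0.967 and 1.7 in the non-responders, and 0.624, 0.892 and 0.463 in the controls (log2 fold change 1.67, SE 0.46, edgeR FDR 0.149). Again the arms did not overlap. Tap1, the neighbour of Psmb9, was at 345 to 637 CPM in Smyd3 ASO tumours and 258 to 297 CPM in controls (log2 fold change 0.97, SE 0.20, edgeR FDR 0.0939). The 5 antigen presentation genes Tap1, Tap2, Tapbp, B2m and Erap1 had a median of 0.64. All 5 were higher at an unadjusted p below 0.05, to be read against the same 8.55% of all genes. The receptor subunits Ifngr1 and Ifngr2 stood at 0.27 and 0.10 and the kinases Jak1 and Jak2 at −0.15 and 0.08, and none of these 4 had an unadjusted p below 0.05. The muscle and leukocyte sums of the same tumours are given above, and their part in these differences was not tested.

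Responders were compared with non-responders, both under Smyd3 ASOs, to ask whether the subunits differ with the outcome marked in the labels. Each of these groups was also compared with the controls, which carry no response mark. Against controls the ASO differs as well, so ASO and outcome cannot be told apart there. Psmb8, Psmb9, Psmb10 and Psme2 rose in responders against controls, and none of the 8 passed between responders and non-responders or between non-responders and controls, by edgeR, DESeq2 or limma voom. In those 2 comparisons edgeR called 0 of all genes, with 1436 and 1562 at an unadjusted p below 0.05. The 3 contrasts came from a single model with the 4 groups, and those against controls share the same 3 control tumours.

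In responders against controls the log2 fold change was 1.10 (SE 0.19, FDR 0.0447) for Psmb8, 1.40 (SE 0.21, FDR 0.0305) for Psmb9, 1.49 (SE 0.22, FDR 0.0301) for Psmb10 and 0.996 (SE 0.14, FDR 0.026) for Psme2 by edgeR's quasi-likelihood test. Psme1, at 0.91 (SE 0.18, edgeR FDR 0.0683), missed the threshold. Psmb5, Psmb6 and Psmb7 stood at 0.38, 0.28 and 0.26 (edgeR FDR 0.253 to 0.638). These 4 calls among 8 members compare with 1.38% of all genes called higher, and both responders exceeded all controls in 7 of the 8, where 18.8% of all genes did. At an unadjusted p below 0.05, 7 of the 8 were higher, where 9.62% of all genes were. The calls depend on single libraries. The number of members called was 0 without any one of controls 1, 2 or 3 or without responder 3, and was 1, Psmb10, without responder 1, where 1.59% of all genes were called higher, while the log2 fold changes of the 4 genes stayed between 0.95 and 1.69. Without a responder that group is 1 tumour, and the fit assumes that it varies like the other groups. Psmb8 missed the threshold with limma voom (FDR 0.0646). Among the genes on the other lists, Irf1 (1.13), Tap1 (1.16) and Erap1 (0.75), an aminopeptidase that trims peptides, also rose in responders against controls (edgeR FDR 0.032 to 0.0447). So did 12 of 13 muscle markers and 3 of the 6 adipocyte markers tested, Plin4, Cfd and Cidec (edgeR FDR 0.0315 to 0.0419). The part of muscle and fat in the subunit values was not tested.

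In non-responders against controls the log2 fold changes were 0.48 for Psmb8 (SE 0.19), 0.76 for Psmb9 (SE 0.21), 0.81 for Psmb10 (SE 0.22), 0.43 for Psme1 (SE 0.18) and 0.44 for Psme2 (SE 0.14), with edgeR FDR of 0.389 to 0.545. Psmb5, Psmb6 and Psmb7 stood at 0.20, 0.21 and 0.22. At an unadjusted p below 0.05, 4 of the 8 were higher, where 5.1% of all genes were, and in 5 of the 8 both non-responders exceeded all controls, where 12.2% of all genes did. The 2 non-responders differed from each other. Without non-responder 1 the values against controls were 0.75 for Psmb8, 1.07 for Psmb9, 1.11 for Psmb10, 0.70 for Psme1 and 0.60 for Psme2. Without non-responder 2 they were 0.15 for Psmb8, 0.37 for Psmb9, 0.44 for Psmb10, 0.10 for Psme1 and 0.26 for Psme2.

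**Figure D4:**
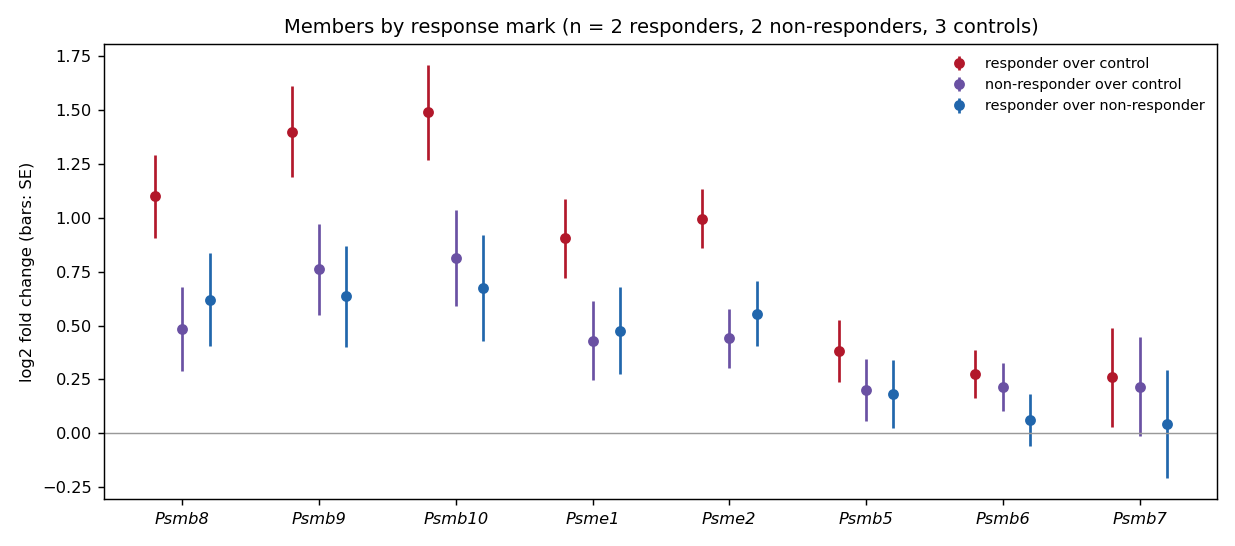
Log2 fold change with its standard error (vertical axis) of the 8 genes (horizontal axis) for responders over controls, non-responders over controls and responders over non-responders. The responder over control values of the 5 inducible genes lie between 0.91 and 1.49, above the other 2 contrasts of the same gene, and in the constitutive genes no value is above 0.38.

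Between responders and non-responders the log2 fold changes were 0.62 for Psmb8 (SE 0.22), 0.64 for Psmb9 (SE 0.24), 0.67 for Psmb10 (SE 0.25), 0.48 for Psme1 (SE 0.20) and 0.56 for Psme2 (SE 0.15), with edgeR FDR of 0.505 to 0.586. Without non-responder 1 these were 0.35 for Psmb8, 0.33 for Psmb9, 0.38 for Psmb10, 0.21 for Psme1 and 0.40 for Psme2, and without non-responder 2 they were 0.94, 1.01, 1.04, 0.80 and 0.72 for the same genes. Psmb10 was at 0.43 without responder 3. The constitutive Psmb5, Psmb6 and Psmb7 stood at 0.18, 0.06 and 0.04. At an unadjusted p below 0.05, 4 of the 8 were higher in responders, where 4.74% of all genes were, and in 6 of the 8 both responders exceeded both non-responders, where 20.3% of all genes did. The log2 ratios to the constitutive partner were higher in responders than in non-responders by 0.47 for Psmb8, 0.61 for Psmb9 and 0.65 for Psmb10. With 2 tumours in each group no permutation p below 0.333 is possible, and none is given. Without non-responder 1 these differences of log2 ratios were 0.22, 0.21 and 0.10. The summed leukocyte markers were at 437 to 802 CPM in responders and 396 to 541 CPM in non-responders, and the muscle markers at 2503 to 12400 CPM in responders and 722 to 1045 CPM in non-responders. Adipocyte markers summed to 63.5 to 278 CPM in responders and 39.1 to 52.1 CPM in non-responders. The 7 keratinising markers ran the other way, at 53.8 to 66.5 CPM in responders and 162 to 391 CPM in non-responders, led by Tgm3 at 1.91 and 1.16 CPM in responders and 196 and 45.5 CPM in non-responders. Their part in the subunit values was not tested.

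The profile of the immunoproteasome over the 8 tumours was compared with that of every gene. The profile was the mean of Psmb8, Psmb9 and Psmb10 in log2 CPM, each centred on its own mean, and likeness was the root mean square difference from it. It stood at 0.59 and 0.77 in the responders, 0.55 in the unmarked tumour, −0.32 and 0.34 in the non-responders, and −0.68, −0.69 and −0.56 in the controls. The most similar genes with established names included Misp, Tap1, Nmi, H2-T22, Sp110, Irf1, Parp9, Parp14 and Tap2, with differences of 0.066 to 0.164, where the median of all 16879 genes with a unique symbol was 0.653. Nmi encodes an interferon-inducible protein, Sp110 a nuclear body protein, and Parp9 and Parp14 encode members of the ADP-ribosyltransferase family. H2-T22 is a class I-like gene with close copies among which reads are hard to place. Misp, a protein of the mitotic spindle, ranged from only 0.553 to 1.27 CPM in Smyd3 ASO tumours and 0.401 to 0.463 CPM in controls. Of the members outside the profile, Psme2 ranked at 17 (0.166) and Psme1 at 21 (0.177) among all genes. Psmb5, Psmb6 and Psmb7 ranked at 772 (0.438), 1623 (0.496) and 3309 (0.551).

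**Figure D5:**
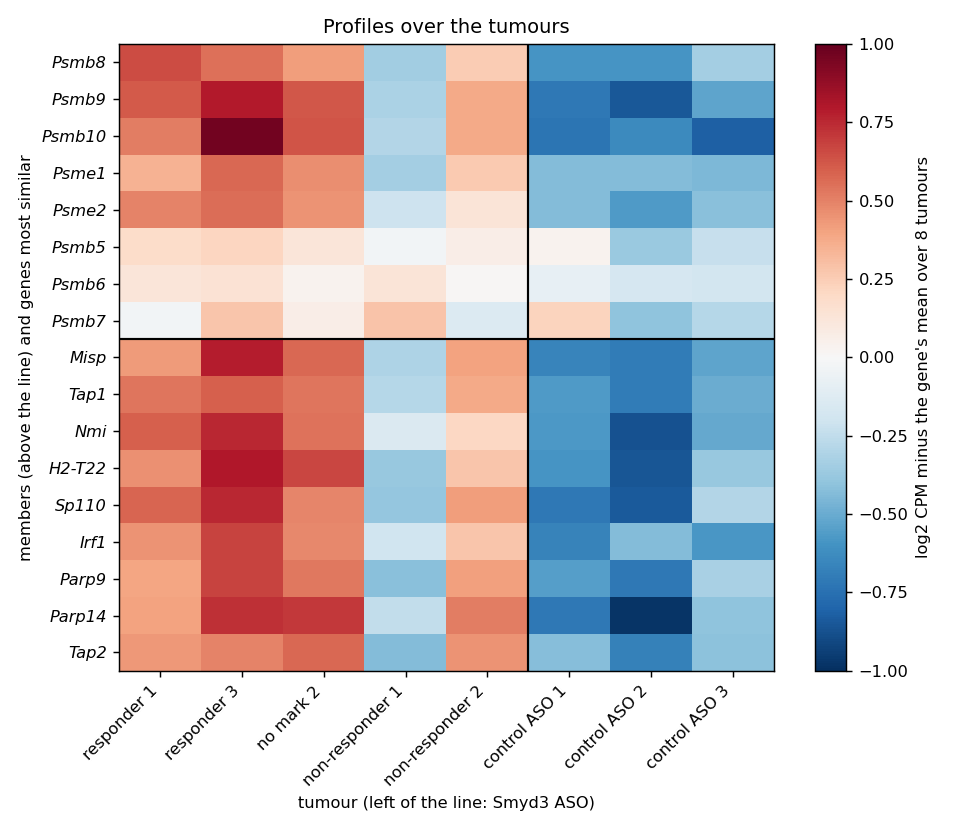
Log2 CPM minus the gene's mean over the 8 tumours (colour, from blue below to red above the mean) for the 8 members and 9 of the genes most similar to the mean of Psmb8, Psmb9 and Psmb10. Smyd3 ASO tumours stand left of the vertical line and controls right of it. Non-responder 1 is below the mean in all 5 inducible members, whereas the constitutive subunits stay between −0.40 and 0.29.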

How the data were processed

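Per the labels' protocols, RNA came from snap-frozen tumours by silica column, and a stranded kit for poly(A) RNA was used. The deposited values are RSEM expected counts per gene, not scaled to library size, with 1 column for each tumour. The build mm10 and the programs RSEM 1.3.0, STAR 2.7.0f, cutadapt 1.18 and bcl2fastq 2.17 are listed in the submitters' processing notes. Settings, the annotation and the use of strand in counting are not given in the sources used here. All 55450 gene IDs were found in GENCODE M21, which gave the coordinates and exon lengths. Columns were matched to tumours through the sample descriptions.

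Exons of Psmb9 and Tap1 share 212 bp, those of Psmb8 and the antisense Gm20496 498 bp, and those of Psmb7 and Nek6 405 bp, on opposite strands. Without stranded counting such reads cannot be told apart. Exons of Psmb5 and the microRNA gene Mir686 share 109 bp on the same strand, where strand does not separate them.

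Expected counts were rounded, and genes were kept where 2 or more libraries reached 0.424 CPM, the level of 10 reads in the median library, and the total was 15 or more (16911 genes, 99.93% of reads). Libraries were scaled with TMM (factors 0.964 to 1.04) and tested in R 4.3.3 with edgeR 4.0.16, as a robust quasi-likelihood fit with two-sided tests and Benjamini-Hochberg FDR over all genes tested. The arms were compared in a fit whose only term was the arm, and the contrasts by response mark with 4 groups over all 8 tumours. The edgeR test reports no standard error. The SE given with edgeR values is the absolute log2 fold change divided by the square root of the quasi-likelihood F statistic. Log2 CPM used a prior count of 2. Count ratios were compared by an exact permutation test of the difference between arm means of log2 ratios. Alternatives were RLE scaling, no count filter, DESeq2 1.42.0, limma 3.58.1 voom, each library left out, the numbered tumours with and without a block, marker scores (mean log2 CPM of the 13 muscle or 13 leukocyte markers) as covariates, and, for the ratios, unrounded counts, a pseudocount of 10 and another denominator. The edgeR step was tested on simulated counts. All members were named, with up to 3 genes of each pathway list by smallest p, the genes Ifng, Irf1, Nlrc5, Tap1 and Psme3, and the 10 genes most similar in profile, except 1 gene that is not reported here. Members of lists beyond these were named to complete a count or a family, after their values were seen. The members and lists were chosen with earlier results of these data known.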

Additional observations from a re-analysis of the deposited data

Results flagged for a closer look

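The ratio of Psmb10 to Psmb7 in the 5 Smyd3 ASO tumours was 0.832 to 0.939 in 4 of them and 0.389 in non-responder 1. The gap below the next tumour was 0.806 of the whole range, above the critical value of 0.71 for 5 samples. Chance flags about 1 in 20 such groups, and 11 values were examined in this way. The control ratios were 0.299 to 0.492. The CPM of Psmb10 itself had a gap share of 0.425, below the critical value. In non-responder 1 Psmb10 was at 60.2 CPM, above the 41.7 to 47.2 CPM of the controls, and its partner Psmb7, at 155 CPM, was the highest of the 8 tumours. Non-responder 1 was also the lowest of the 5 in the other ratios, with gap shares of 0.577 for Psmb8 to Psmb5 and 0.662 for Psmb9 to Psmb6, below the critical value.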

How the results depend on the processing

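For Smyd3 ASO against control ASO, edgeR called 0 genes and 0 members. It called 0 with RLE scaling, limma voom and the muscle score, 52 genes (0 members) without a count filter and 3 (0 members) with the leukocyte score. DESeq2 called 1053 genes and 6 members. The replicate block in the 6 numbered tumours gave 245 genes and 5 members (1.25% of all genes higher), against 286 and 5 without a block (1.42%). Deviations of same-numbered tumours correlated at −0.041, 0.001 and 0.102, and those of differently numbered tumours at −0.186 to 0.16. With 3 numbered tumours per arm, these values cannot decide whether the shared numbers mark pairs. With the block the ratio differences were 0.68, 1.13 and 1.17, where 3 pairs allow no exact sign-flip p below 0.25. Leaving out 1 library gave 0 to 258 genes and 0 to 5 members. With the muscle score, log2 fold changes turned to −0.124 (Psmb8), −0.058 (Psmb9), −0.114 (Psme1), −0.128 (Psme2) and −0.028 (Psmb5). For responders against non-responders (0 genes), 7 genes were called without a filter, 225 by DESeq2 and 0 to 21 with a library left out, and the members stayed at 0. With a library left out, Psmb6 ranged over −0.005 to 0.121 and Psmb7 over −0.164 to 0.271, both lowest without non-responder 2, and Psmb7 was also below 0, at −0.115, without responder 3. For responders against controls (280 genes, 4 members), 499 genes were called without a filter, 1153 by DESeq2, 135 by limma voom and 0 to 287 with a library left out, with 0 to 5 members, the 5 without either non-responder (0.901% and 0.712% of genes higher). For non-responders against controls (0 genes), 32 were called without a filter and 339 by DESeq2, and the members stayed at 0. Psmb7 ranged over −0.013 (without non-responder 1) to 0.43. The ratio differences between arms ranged with a library left out over 0.357 to 0.638 for Psmb8 to Psmb5, 0.801 to 1.07 for Psmb9 to Psmb6 and 0.735 to 1.16 for Psmb10 to Psmb7. Rounding, pseudocount and denominator left all 3 on their side of the threshold. Where a library left out leaves 1 responder or 1 non-responder, that tumour is assumed to vary like the other groups. The causes were not tested. With 2 to 5 tumours a group, the spread between tumours and not read depth limits precision, as the members held 990 or more expected counts in every library.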
